A study of Drosophila melanogaster with 3 samples.

Results

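The Hippo pathway genes described here are hpo, sav, wts and mats of the kinase cassette, the apical regulators ex, Mer and kibra, the coactivator yki, and app and d, which act downstream of the cadherin Fat. Members were taken as all probe sets whose platform annotation carries 1 of these 10 symbols and no other. The rule found 11 probe sets for 9 genes, of 13646 single-symbol probe sets for 11981 genes, and d, which encodes an unconventional myosin, was not analysed here. The samples were pupal wings of the *Drosophila melanogaster* strain Oregon R, raised at 25 C and dissected at about 80 h after puparium formation (APF). There was 1 group of 3 biological replicates, each on 1 Affymetrix array with RNA from a batch of 40 flies. All samples shared strain, stage and treatment, so no contrast between conditions existed. Age was judged by eye from wing pigmentation and is approximate, and each batch pooled wings of many animals.

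The Hippo pathway limits tissue growth. The kinase Hippo, held by the scaffold Salvador, activates the kinase Warts together with its adaptor Mats, and Warts phosphorylates the coactivator Yorkie, which then stays out of the nucleus. Merlin, Expanded and Kibra promote this chain at the apical cell membrane, and the cadherin Fat feeds into it through Dachs and the palmitoyltransferase Approximated. In the wing the pathway is best known for setting organ size during larval growth, and the Fat branch is also known for its part in planar polarity.

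Each probe set was set against a reference level made from 90 genes of other organs, namely odorant receptors, eggshell proteins and accessory gland proteins. On each array the level was their 95th percentile, at a signal of 106.2, 108.8 and 96.5 on replicates 1, 2 and 3, where the median probe set signal was 67.6, 73.3 and 59.7. A probe set was called above the reference when limma's one-sided moderated test of its log2 signal minus this level gave an adjusted p under 0.05. Differences below are means over the 3 arrays ± SE on the log2 scale. Signals of different probe sets are not an order of transcript abundance, because probes differ in how well they hybridise.

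All 9 measured Hippo pathway genes had a probe set above the reference, with 9 of 11 probe sets called. Among all probe sets tested 42.3% were called, and 45.4% of genes had at least 1 called probe set. The same 9 of 11 probe sets lay over the reference level on all 3 arrays, as did 44.8% of all probe sets. The median difference was 2.65 over the 11 member probe sets and -0.20 over all probe sets tested. Both probe sets that were not called belonged to kibra and app, genes whose other probe set was. Of the 90 reference genes 1 was called, the follicle cell protein gene Fcp3C at 1.29 ± 0.13 (limma adjusted p = 0.00184), named after its values were seen. The level was the 95th percentile of these same genes, so few of them could be called. Their count is therefore no separate check of the calls.

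**Figure D1:**
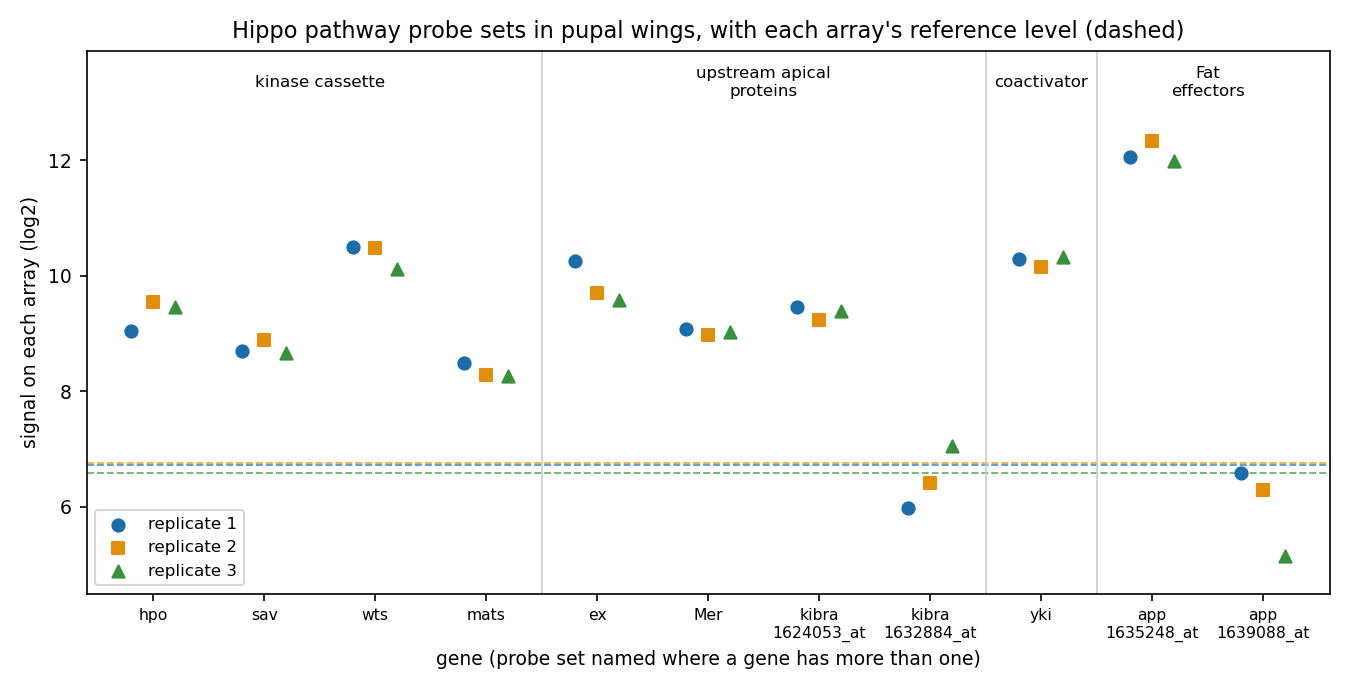
Signal of each Hippo pathway probe set on each array (log2, vertical axis), with genes grouped by role along the horizontal axis and 1 symbol per replicate; dashed lines are the reference levels of the 3 arrays in the same colours. All arrays lie above the reference for 9 probe sets, while 1632884_at of kibra lies above it on 1 array and 1639088_at of app on 0.

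Of the kinase cassette, all 4 genes were above the reference. The Ste20-like kinase gene hpo (1634303_at) had signals of 527.8, 744.9 and 707.3 on replicates 1, 2 and 3. The array of replicate 1 was the low one, and the lowest value was still well above the reference. The mean difference was 2.65 ± 0.18, or 6.3-fold over the reference (limma adjusted p = 0.000616). The scaffold gene sav (1628053_at) had signals of 414.0, 477.0 and 406.5, with little separation between the arrays. Its difference was 2.06 ± 0.13, or 4.16-fold (limma adjusted p = 0.000479).

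The gene of the downstream kinase, wts (1635182_at), had signals of 1453.6, 1434.5 and 1109.2. Replicates 1 and 2 lay close together and replicate 3 was lower. Its difference of 3.67 ± 0.13, or 12.8-fold over the reference, had a limma adjusted p of 0.000158. The gene of its adaptor, mats (1632919_at), had signals of 360.6, 311.4 and 307.3, all above the reference level of their arrays. The difference of mats was 1.65 ± 0.13, or 3.14-fold (limma adjusted p = 0.000971). With the 99th percentile of the reference genes as the level, which lay 1.06 higher, mats stayed called at 0.59 (limma adjusted p = 0.0335).

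The 3 apical regulators were above the reference as well. The FERM domain gene ex (1625970_at) had signals of 1226.7, 834.1 and 771.1. Replicate 1 stood above the other two, and the ratio of the highest to the lowest array, 1.59, was the largest among the called member probe sets. The difference of ex was 3.16 ± 0.19 (limma adjusted p = 0.000446). Its FERM domain partner gene Mer (1623379_at), the fly ortholog of the human Merlin gene, had signals of 543.3, 503.0 and 523.1. These were the most even values of any member, with an SD of 0.06 on the log2 scale. The difference of Mer was 2.33 ± 0.13, or 5.04-fold (limma adjusted p = 0.000385).

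The WW domain gene kibra had 2 probe sets that gave different calls. With 1624053_at the signals were 703.1, 602.9 and 670.8, and the difference of 2.66 ± 0.14 was called (limma adjusted p = 0.000342). With 1632884_at they were 63.0, 85.4 and 132.9, and only replicate 3 lay over its reference level. The difference of that probe set was -0.21 ± 0.30 (limma adjusted p = 1.0). When the log2 signals of both were averaged, kibra was called at 1.23 (limma adjusted p = 0.00687). The RefSeq gene table lists 2 transcripts of kibra.

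The coactivator gene yki had 1 probe set (1628461_a_at), whose suffix marks probes shared by several transcripts of a gene. Its signals were 1253.1, 1141.5 and 1280.6, and the 3 arrays differed by 1.12-fold from lowest to highest. The difference was 3.56 ± 0.14, or 11.8-fold over the reference (limma adjusted p = 0.000184). The RefSeq gene table lists 4 transcripts of yki, which this probe set was not used to tell apart. The array measures RNA, so the phosphorylation and the location of Yorkie, on which its activity depends, were not measured.

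The palmitoyltransferase gene app also had 2 probe sets that gave different calls. With 1635248_at the signals were 4245.1, 5190.5 and 4062.5, far above the reference on every array. The difference was 5.43 ± 0.13, or 43.1-fold (limma adjusted p = 0.000109). With 1639088_at the signals were 95.8, 78.5 and 35.4, below the reference on all 3 arrays and lowest on replicate 3. The difference of that probe set was -0.69 ± 0.32 (limma adjusted p = 1.0), and the mean of both probe sets gave 2.38 (limma adjusted p = 0.000839). The RefSeq gene table lists 10 transcripts of app. Which transcripts each probe set detects was not analysed here.

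Among all genes with 2 probe sets, a split of this kind was found in 246 of 753. Both probe sets were called in 146 of them and neither in 361. Of 584 genes with several probe sets and at least 1 called, 405 (69.3%) also had 1 that was not called.

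**Figure D2:**
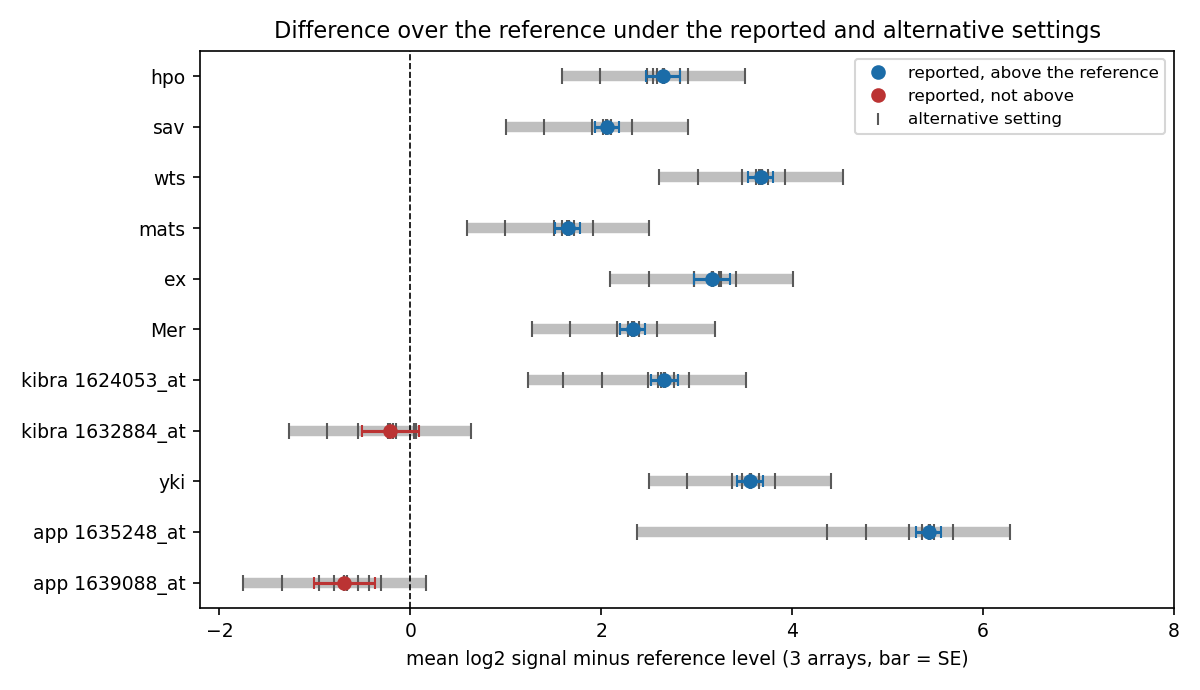
Difference of each member probe set over the reference (mean log2 signal minus the reference level, horizontal axis); points with SE bars are the reported values, ticks the alternative settings and grey bars their range. For 1624053_at of kibra and 1635248_at of app the lowest tick (1.23 and 2.38) is the mean of both probe sets of the gene. The 9 called probe sets lie above 0 under every setting, whereas 1632884_at of kibra spans -1.27 to 0.64 and 1639088_at of app spans -1.75 to 0.16.

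The called members varied between the arrays about as much as called probe sets in general. A small SD makes a call more likely, so low SDs among called probe sets come in part from the selection. Their SD over the 3 replicates ran from 0.06 for Mer to 0.36 for ex on the log2 scale, with a median of 0.13, and the median over all 5766 called probe sets was 0.16. The probe sets of kibra and app that were not called had SDs of 0.54 and 0.76, and the median over all probe sets tested was 0.36. Deviations from a gene's own mean did not run the same way in all members. On replicate 1, ex was 0.41 above its mean and hpo was 0.31 below. On replicate 3, wts was 0.25 below its mean, ex was 0.26 below and hpo was 0.12 above. With 1 array per replicate these deviations could not be tested.

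**Figure D3:**
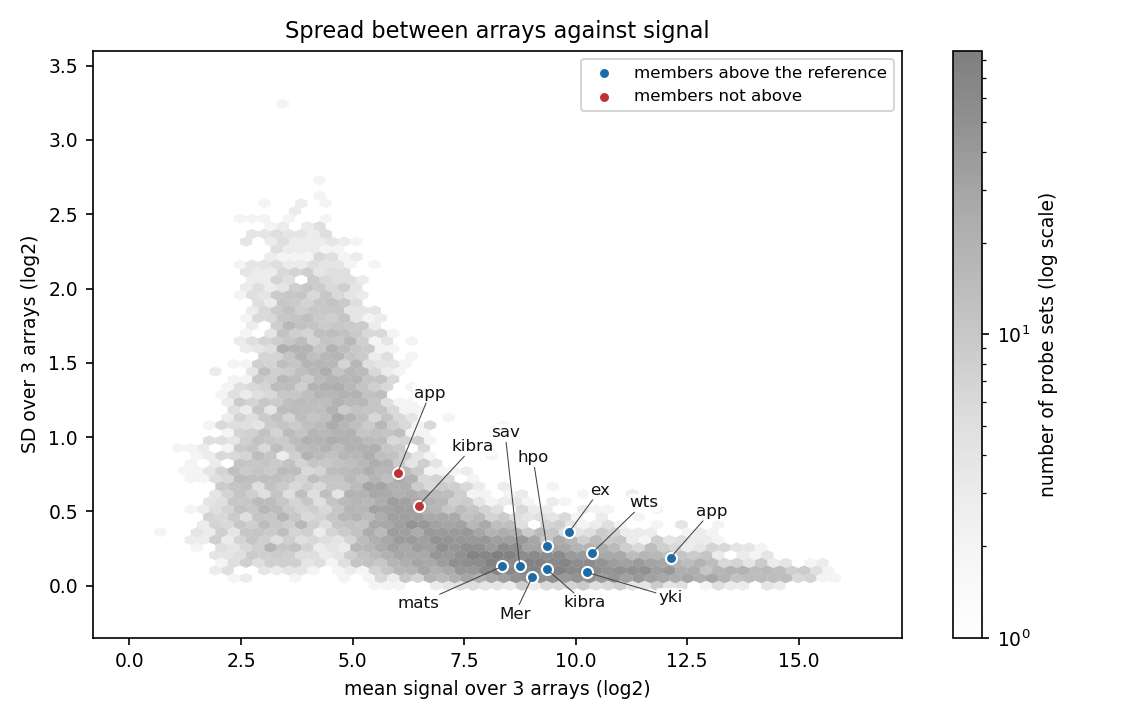
SD over the 3 arrays (log2, vertical axis) against the mean signal (log2, horizontal axis) of all 13646 single-symbol probe sets, shaded by their number, with the 11 Hippo pathway probe sets as points. The 9 called members have SDs from 0.06 to 0.36, and the 2 that were not called lie at lower signal with SDs of 0.54 and 0.76.

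Genes around the pathway were described from lists chosen with earlier results of these data known. Of the Fat-Dachsous module, which passes signals between neighbouring cells, 5 of 6 measured genes were above the reference, beside 45.4% of all genes. The kinase gene dco was at 5.04 ± 0.15 over the reference, lft at 4.21 ± 0.12, the cadherin gene ds at 3.59 ± 0.17, Fbxl7, whose product acts in the Fat branch, at 2.88 ± 0.13 and Dlish, which encodes a partner of Dachs, at 1.36 ± 0.15. The Golgi kinase gene fj, which encodes a modifier of Fat and Dachsous, was over the level on all 3 arrays, with signals of 170.1, 122.8 and 168.9, but its difference of 0.55 ± 0.19 missed the threshold (limma adjusted p = 0.0607). It passed under 6 of the 14 alternatives, among them without replicate 2 (0.74, limma adjusted p = 0.0428). Dlish lost its call with the 99th percentile as reference (0.30, limma adjusted p = 0.242). The gene ft, which encodes Fat itself, was not analysed here.

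Of the other upstream regulators, 22 of 24 measured genes were above the reference, beside 45.4% of all genes. Of their 33 probe sets 28 were called, beside 42.3% of all probe sets. The list holds cell polarity proteins, spectrins, junction proteins and the STRIPAK phosphatase complex, which opposes Hippo. The STRIPAK gene Strip was at 7.39 ± 0.12, the spectrin genes alpha-Spec at 6.81 ± 0.17 and beta-Spec at 6.74 ± 0.13, and the polarity gene scrib at 6.40 ± 0.13 on the highest of its 5 probe sets. The other probe sets of scrib were much lower, from 1.29 to 2.79, and all were called. Near the other end, jub, whose product binds Warts at junctions, was called at 0.78 ± 0.15 (limma adjusted p = 0.0125). That call was lost without replicate 1 (0.66, limma adjusted p = 0.0658), without replicate 3 (0.83, limma adjusted p = 0.0512) and with the reference levels from the 99th percentile (-0.28) or from eggshell and accessory gland genes alone (0.12). Not called were Schip1 at -0.56 ± 0.46 and the salt-inducible kinase gene Sik2 at -0.71 ± 0.21. Most proteins of this list also serve general epithelial functions.

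Of the nuclear partners of Yorkie and the proteins that hold it in the cytoplasm, 8 of 10 measured genes were above the reference. The share over all genes was 45.4%. The cytoplasmic anchors 14-3-3epsilon and 14-3-3zeta were at 6.59 ± 0.15 and 5.93 ± 0.14, and the Yorkie cofactor gene Wbp2 was at 5.74 ± 0.12. The cofactor gene mask was at 5.52 ± 0.12 on 1 probe set and at 1.57 ± 0.14 on the other, and both were called. The gene Tgi, whose product competes with Yorkie for Scalloped, was at 2.33 ± 0.13. The proximal wing and trunk factor gene tsh, with signals between 11.9 and 26.5, lay at -2.60 ± 0.29 and Ncoa6 at -2.16 ± 0.28, and neither was called (limma adjusted p = 1.0 for both). The genes sd and hth, which encode DNA-binding partners of Yorkie, were not analysed here.

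Of 11 listed Yorkie targets beside ex, Mer, kibra and fj, 4 were measured, and 2 of these (50.0%) were above the reference, a share near the 45.4% of all genes. The glypican gene dlp was at 2.08 ± 0.14 (limma adjusted p = 0.000666) and the relaxin-like gene Ilp8 at 1.27 ± 0.13 (limma adjusted p = 0.00198), the second not with the 99th percentile as reference (0.21, limma adjusted p = 0.439). The cyclin gene CycE had signals of 117.2, 200.5 and 166.1, over the level on all 3 arrays, but missed the threshold at 0.60 ± 0.21 (limma adjusted p = 0.0666). It passed under 6 alternatives, among them without replicate 1 (0.83, limma adjusted p = 0.0417). The cytokine gene upd1 was below the level on every array, at -2.07 ± 0.55. Each of these genes also responds to other pathways, and with 4 measured the list says little about Yorkie targets as a whole.

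Relatives of the members were above the reference in 8 of 8 measured cases, beside 45.4% of all genes, with 9 of their 10 probe sets called. The gene fry, which encodes a cofactor of the Warts relative Tricornered, was at 4.06 ± 0.13 on the higher of its 2 probe sets, and the other was not called. The Mats relatives Mob2 and Mob3 were at 1.73 ± 0.14 and 1.76 ± 0.13. The Merlin relative Moe, which encodes moesin, was at 8.30 ± 0.13, the FERM domain gene cora at 6.26 ± 0.18, the Ste20-like kinase gene msn at 4.33 ± 0.13 and the palmitoyltransferase gene Dnz1 at 3.04 ± 0.18. Each of these is named on a probe set that carries only its own symbol.

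**Figure D4:**
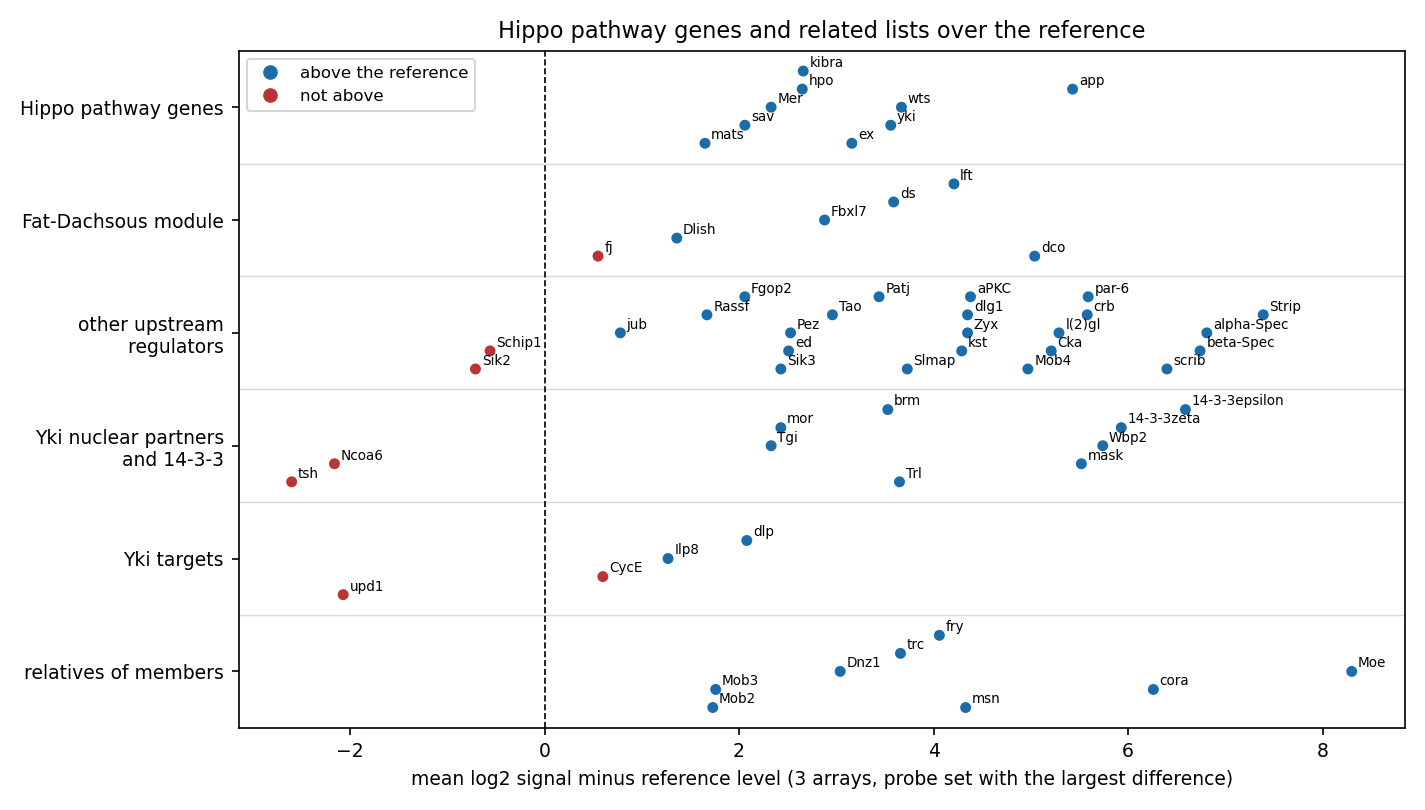
Difference over the reference (mean log2 signal minus the reference level, horizontal axis) of the 9 measured Hippo pathway genes and of 5 related lists (rows), each gene at its probe set with the largest difference. All 9 Hippo pathway genes lie between 1.65 and 5.43, and the genes that were not called are fj, Schip1, Sik2, tsh, Ncoa6, CycE and upd1.

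Of the wing regulator genes salm, bs, ap, nub and vg, all 5 had a probe set above the reference, beside 45.4% of all genes, with differences between 2.91 and 6.28 on the highest probe set of each. These genes had 9 probe sets, of which 6 were called, with 1 of 3 called for nub and 1 of 2 for vg. Markers of other cell types were called in part, with 0 of 3 for neurons, 2 of 2 for glia, 1 of 3 for haemocytes, 1 of 3 for muscle, 0 of 1 for trachea and 2 of 2 for fat body. Among those called were the glial gene moody at 4.34 ± 0.22, the muscle gene Act88F at 2.24 ± 0.28 and the fat body gene Lsp2 at 2.18 ± 0.15. The glial gene repo was called at 0.81 ± 0.16 (limma adjusted p = 0.0144), the haemocyte gene NimC1 at 0.98 ± 0.12 and the fat body gene Fbp1 at 1.02 ± 0.13. The neuronal gene elav was over the reference level on all 3 arrays but missed the threshold at 0.94 ± 0.37 (limma adjusted p = 0.0881). The neuronal genes nSyb and brp lay at -3.63 ± 0.28 and, on its highest probe set, -0.02 ± 0.23. Also not called were the muscle genes up at -1.70 ± 0.56 and TpnC4 at -0.43 ± 0.15. The haemocyte genes Hml and He lay at -1.72 ± 0.56 and -1.32 ± 0.71, and the tracheal gene btl at -3.96 ± 0.54. The share of the Hippo pathway signals that came from cells other than wing epithelium was not tested. In a whole tissue, fewer cells of a type and less RNA per cell cannot be told apart.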

How the data were processed

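Per the labels' protocols, 5 ug of total RNA gave biotinylated cRNA for Affymetrix arrays. The deposited values were linear intensity values per probe set. The authors named MAS5 and RMA, per the submitters' processing notes, without role or version. All 3 deposited columns had a trimmed mean of 500.0 after removal of 2% at each end, a feature of MAS5 signals, and their log2 was taken with no other normalization. The build of the probe annotation is not given in the sources used here, so no coordinates are given.

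Of 18952 probe sets, 13646 had 1 symbol in the platform annotation, 402 several, 4721 none, and 183 were controls. No probe set with several symbols held a member, and none was used to name a gene. The reference held 56 odorant receptor genes and 34 eggshell or accessory gland genes, each at its probe set with the highest mean. limma 3.58.1 in R 4.3.3 (lmFit, eBayes) tested log2 signal minus the reference level, one-sided, with Benjamini-Hochberg adjustment over the 13646 probe sets and 0.05 as the threshold. The test does not include the uncertainty of the reference level. Data were simulated with the means and SDs of these arrays and noise independent between arrays, without error in the reference level. Of 200 probe sets placed 1 log2 unit over the reference, 94.5% were called, and 64.5% of those placed 0.5 over it. The placed probe sets took the SDs of real probe sets near that level. These simulations gave 6080 and 6028 calls in all, beside 5766 in the real data, so recovery there may differ. The number of arrays limits the precision.

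Members and lists were chosen with earlier results of these data known. Every member probe set is named. Of each other list, up to 4 genes with the largest and 3 with the smallest difference are named. A symbol was matched through RefSeq synonyms where the annotation lacked it. Alternatives were other reference levels, quantile normalization, an offset of 16, a filter on low signals, an intensity trend in limma, plain _at probe sets, 1 value per gene and leaving out each replicate. Python 3.11.15, pandas 2.3.3, numpy 2.4.6 and matplotlib 3.10.9 were used.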

Additional observations from a re-analysis of the deposited data

How the results depend on the processing

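All 9 measured Hippo pathway genes stayed called under each of the 14 alternatives, except that yki had no value with plain _at probe sets alone. The largest limma adjusted p of the 9 called probe sets over these alternatives was 0.0335, for mats with the 99th percentile as reference. The share called among all probe sets moved too, with 4153 of 13646 for the 99th percentile and 6273 of 13646 for the median plus 1. With the filter on low signals 6150 of 6823 were called, so most probe sets tested there passed. The mean reference level moved by 1.06 (log2) with the 99th percentile, 0.66 with eggshell and accessory gland genes alone, -0.26 with odorant receptors alone and -0.85 with the median plus 1. The probe sets 1632884_at of kibra and 1639088_at of app had a value in 11 of the 14 alternatives and were never called. That of kibra changed sign with the median plus 1 (0.64) and with odorant receptors alone (0.04). It ran from -0.55 to 0.06 when 1 replicate was left out. That of app changed sign with the median plus 1 (0.16). With plain _at probe sets alone fewer genes were tested, and 14 of 16 other upstream regulators, 3 of 5 Yorkie partners and 5 of 5 relatives were called. Of all 10960 plain _at probe sets 4023 were called. Of the Yorkie targets 1 of 4 was called with the 99th percentile. No paired analysis was possible because all samples belong to 1 group. No group had enough arrays for a test of outlying samples.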
